A study of Mus musculus with 6 samples.

Results

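The Kruppel-like factors are a family of DNA-binding proteins, and this account covers the members Klf1, Klf2, Klf3, Klf4, Klf5, Klf6, Klf7, Klf9, Klf13 and Klf15 in embryonic mouse kidneys with and without Wnt4. A probe set, the group of array probes read out as 1 signal, was taken as a member when the platform annotation gave it a single gene symbol, updated to the current name, that is on this list. This gave 13 probe sets for 9 of the 10 genes, out of 12422 probe sets on the array, of which 10833 had 1 symbol. No probe set used here carried the name Klf15, so Klf15 was not analysed here. Klf3, Klf4, Klf9 and Klf13 had a pair of probe sets each.

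Whole kidneys (metanephros, the embryonic kidney) dissected at E14.5 (in days after mating) were measured on 6 Affymetrix MG_U74Av2 arrays. The 4 wild-type samples, labelled CD-1, each pooled 2 kidneys. The 2 Wnt4 mutant samples carry the Wnt4tm1Amc allele, are labelled 129, and each pooled 8 to 10 kidneys from 4 to 5 embryos. Strain label, pool size and genotype differ together and cannot be told apart, and the protocol text of every sample speaks of CD-1 matings. Per the study's design text, the renal vesicle (the earliest epithelial stage of the nephron) and what forms from it are missing in the mutant, so that comparing the groups points to genes expressed in these structures.

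All Kruppel-like factors end in a set of zinc fingers that bind GC-rich DNA, typically a CACCC element or a GC box, and they differ in the region before the fingers, which recruits activating or repressing partners. Klf1 drives globin and red cell genes, and Klf2 is a flow-responsive regulator of blood vessel endothelium. Klf4 acts in epithelial differentiation, endothelium and stem cell identity, Klf5 promotes proliferation of epithelial cells, and Klf6 and Klf7 form a closely related pair of activators. Klf3 recruits the corepressor CtBP, and Klf9 and Klf13 recruit the Sin3 corepressor. Klf9 and Klf15 are known glucocorticoid-responsive genes. In the kidney, members of this family have been studied in the collecting duct, podocytes and vessels.

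The arrays had similar overall levels, with median signals of 173 to 191, and the 40th percentile of signals lay between 101 and 110. Probe sets above that percentile on at least 2 arrays were tested. Log2 signals correlated at 0.949 to 0.969 within the wild type, at 0.967 within the mutant and at 0.944 to 0.955 across groups. On the second principal component (21.7% of the variance) wild-type replicates 2 and 4 lay at opposite ends, so counts are also given without both. Wnt4 itself read 829, 739, 946 and 699 in the wild type and 74.2 and 34.5 in the mutant, as the labels say. Whether its probe set covers sequence changed in the allele is not stated by the labels.

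Of the 13 Klf probe sets, 11 were tested, covering 8 genes. Klf4 and Klf5 rose in the Wnt4 mutant, 1 of the Klf13 probe sets fell, and 8 probe sets did not pass. This is 3 of 11, where 10.8% of all 7981 tested probe sets passed. By direction it is 2 higher and 1 lower, against 4.65% and 6.11% of all tested. The test was limma on log2(signal + 16) with Benjamini-Hochberg adjustment over the 7981 probe sets and a threshold of 0.05. All differences are the mutant mean less the wild-type mean on this scale. For 5 of the 11 Klf probe sets neither mutant array fell within the wild-type range, where this held for 37.4% of all tested. Both were above it for 2 (18.6% of all tested) and below it for 3 (18.8%). Among these 3, Klf9 at 93527_at was tested only through wild-type arrays, where it is high. The median difference was 0.26 over the 11 Klf probe sets and 0.02 over all tested. Without wild-type replicates 2 and 4, 2 Klf probe sets were higher and 0 lower.

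**Figure D1:**
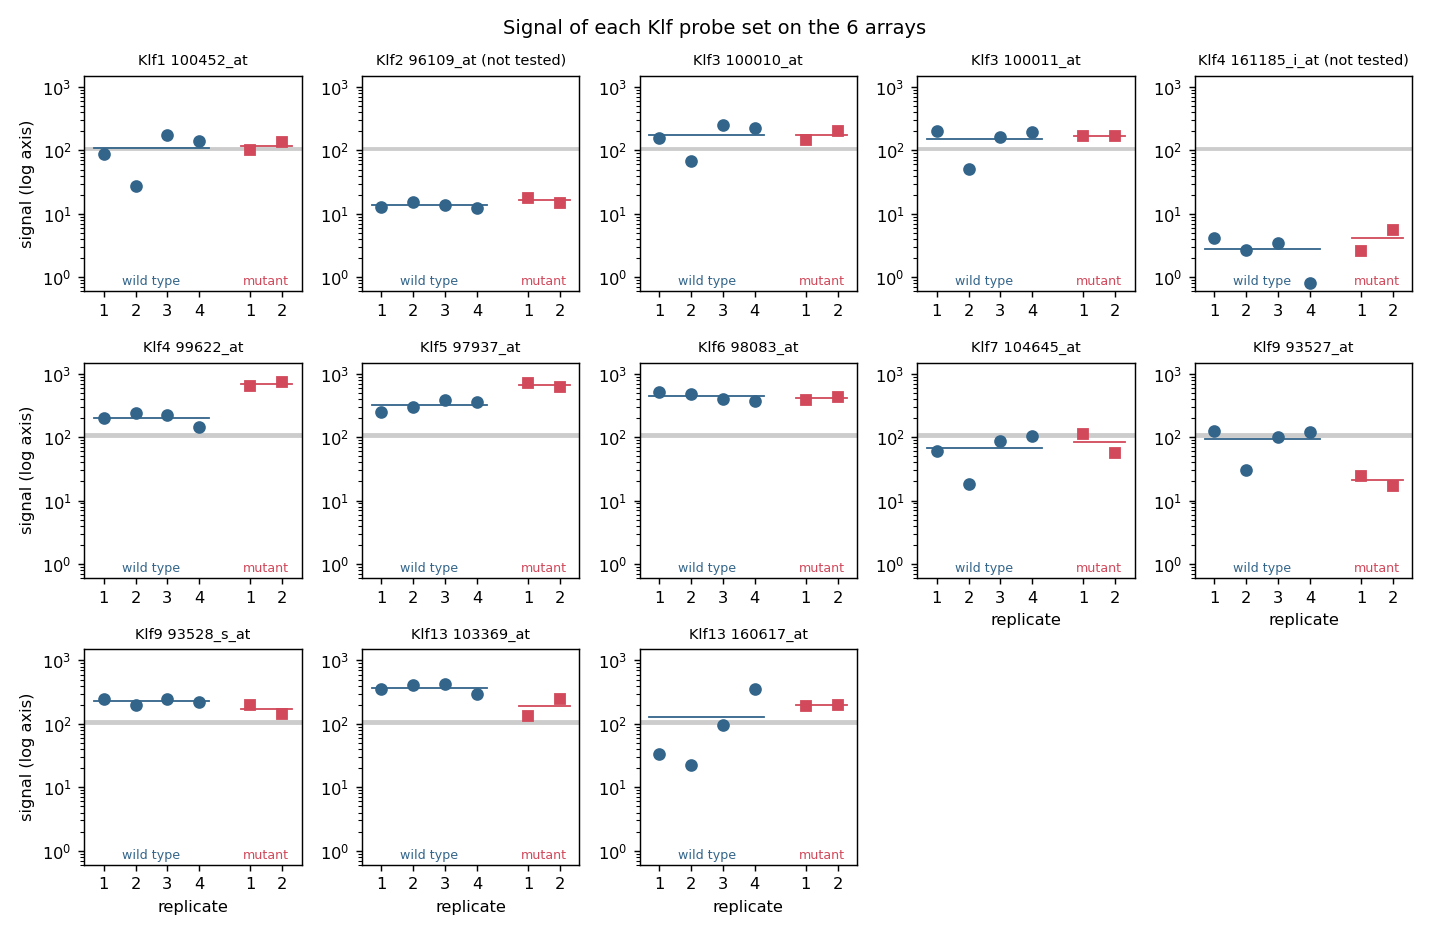
Each panel plots the signal of a Klf probe set (log axis) on the 4 wild-type arrays (blue circles) and the 2 mutant arrays (red squares), with group means as lines and the 40th percentile of the arrays as a grey band. Klf4 at 99622_at and Klf5 at 97937_at lie higher on both mutant arrays than on any wild-type array, and Klf2 at 96109_at and Klf4 at 161185_i_at lie far below the band on all 6.

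Klf4 showed the largest difference among the Klf probe sets that passed. Its probe set 99622_at read 201, 236, 227 and 142 on the wild-type arrays, in the order of their replicate numbers, and 633 and 739 on the mutant arrays. Both mutant arrays were well above every wild-type array, and wild-type replicate 4 was the lowest. The mean was 202 ± 42.2 (SD, n = 4) in the wild type and 686 ± 74.7 (SD, n = 2) in the mutant, a ratio of 3.40. The log2 difference was 1.71 ± 0.21 (SE; 95% interval 1.23 to 2.19; limma, adjusted p = 0.00127). It was the 30th largest rise among the probe sets that passed. In whole-organ RNA, more cells of a type and more RNA per cell cannot be told apart. The call held in all 16 alternative settings, with differences from 1.51 to 1.82 and an adjusted p of at most 0.0283.

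The other Klf4 probe set, 161185_i_at, read 4.12, 2.66, 3.52 and 0.80 in the wild type and 2.59 and 5.66 in the mutant. These signals are far below the 40th percentile on all 6 arrays, the groups overlap, and the probe set was not tested. The rise of Klf4 therefore rests on 99622_at alone. No difference between the changes of the Klf4 probe sets is given, since signals this low can hardly vary once the offset of 16 is added.

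Klf5 had a single probe set, 97937_at, which read 250, 297, 385 and 364 in the wild type and 708 and 627 in the mutant. The groups did not overlap, and the highest wild-type array was replicate 3. The mean went from 324 ± 62.1 (SD, n = 4) to 668 ± 56.8 (SD, n = 2), a ratio of 2.06. The log2 difference was 1.02 ± 0.19 (SE; 95% interval 0.60 to 1.45; limma, adjusted p = 0.00915). With a single mutant array left, the call was lost: the difference was 0.94 (adjusted p = 0.102) without mutant replicate 1 and 1.11 (adjusted p = 0.0642) without mutant replicate 2. Klf4 and Klf5 both rose, but whether their rises differ in size was not tested.

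**Figure D2:**
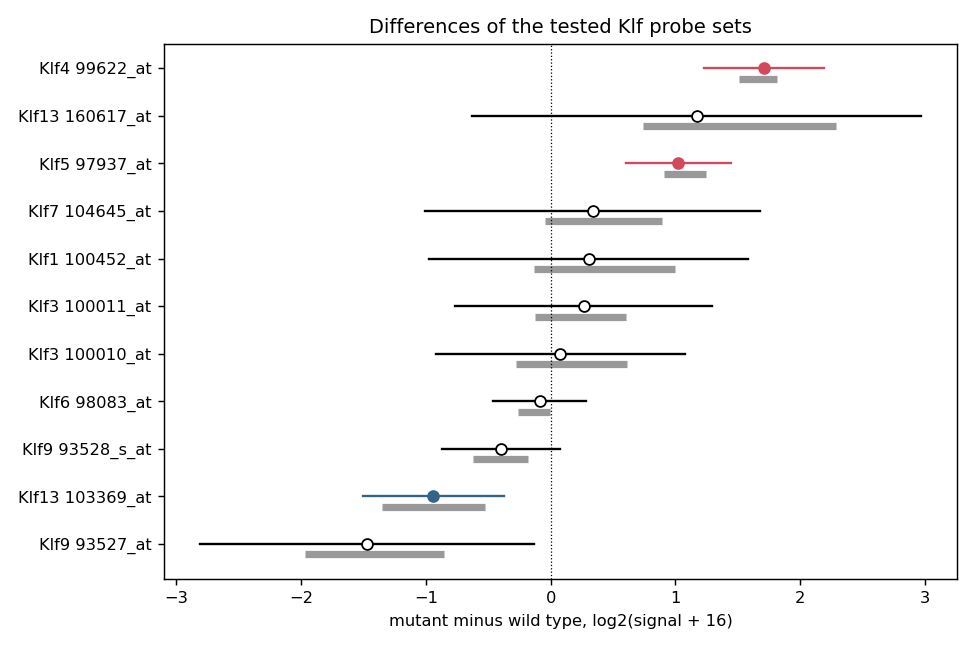
Points give the log2 difference (mutant minus wild type) of the 11 tested Klf probe sets with the 95% interval as a thin line, filled where the adjusted p was under 0.05, and grey bars give the range over the alternative settings in which the probe set was tested. Klf4 (1.71) and Klf5 (1.02) stand to the right of 0, and the Klf13 probe sets stand on opposite sides (-0.94 and 1.17).

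Klf13, a repressor that works with Sin3, gave opposite signs at its probe sets. At 103369_at it read 353, 408, 420 and 294 in the wild type and 133 and 248 in the mutant. The mutant arrays were both below the wild-type range and spread more (as an SD) than the wild-type arrays, with a mean of 191 ± 81.5 (SD, n = 2) against 369 ± 57.5 (SD, n = 4). The log2 difference was -0.94 ± 0.25 (SE; limma, adjusted p = 0.0448). The call was lost without wild-type replicate 1, 2 or 3 (adjusted p = 0.0914, 0.0781 and 0.0933), without both replicates 2 and 4 (0.0644), with no filter (0.0745) and with eBayes without a trend (0.0863). Without mutant replicate 1 the difference was -0.53 (adjusted p = 0.318).

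At 160617_at, Klf13 read 33.3, 22.2, 95.7 and 356 in the wild type and 195 and 196 in the mutant. The wild-type arrays spread widely, replicate 4 lay above both mutant arrays and the other wild-type arrays lay below them, so the groups overlap. The log2 difference was 1.17 ± 0.79 (SE; 95% interval -0.63 to 2.97; limma, adjusted p = 0.403). It was 0.74 (adjusted p = 0.554) without wild-type replicate 2 and 1.83 (adjusted p = 0.0591) without wild-type replicate 4. The change of 103369_at minus that of 160617_at was -2.11 (exact two-sided permutation test over the 15 splits of the arrays, which can give no p under 0.0667; p = 0.20; adjusted p = 0.267 over the 4 pairs of probe sets of a Klf gene, the Klf4 pair counted among them). Within the wild type, the log2 level at 103369_at minus that at 160617_at ran from -0.26 in replicate 4 to 3.47 in replicate 2. No direction is therefore given for Klf13 as a gene.

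Klf9, the other Sin3-recruiting member, was lower on both mutant arrays at both of its probe sets without passing at either. At 93527_at it read 124, 30.9, 102 and 122 in the wild type and 24.8 and 17.0 in the mutant. Wild-type replicate 2 was low and close to the mutant arrays, which were both below the 40th percentile. The probe set exceeded that percentile on 2 arrays, both wild type, so it was tested only through the group where it is high. The log2 difference was -1.47 ± 0.59 (SE; 95% interval -2.81 to -0.13; limma, adjusted p = 0.151). Without wild-type replicate 2 it was -1.84 (adjusted p = 0.0424). At 93528_s_at it read 245, 200, 251 and 219 in the wild type and 199 and 143 in the mutant, where mutant replicate 1 lay just under the lowest wild-type array. The log2 difference there was -0.40 ± 0.21 (SE; adjusted p = 0.264), with -0.62 without mutant replicate 1 and -0.18 (adjusted p = 0.769) without mutant replicate 2. The change of 93527_at minus that of 93528_s_at was -1.07 (exact two-sided permutation test, p = 0.133; adjusted p = 0.267 over 4 pairs).

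**Figure D3:**
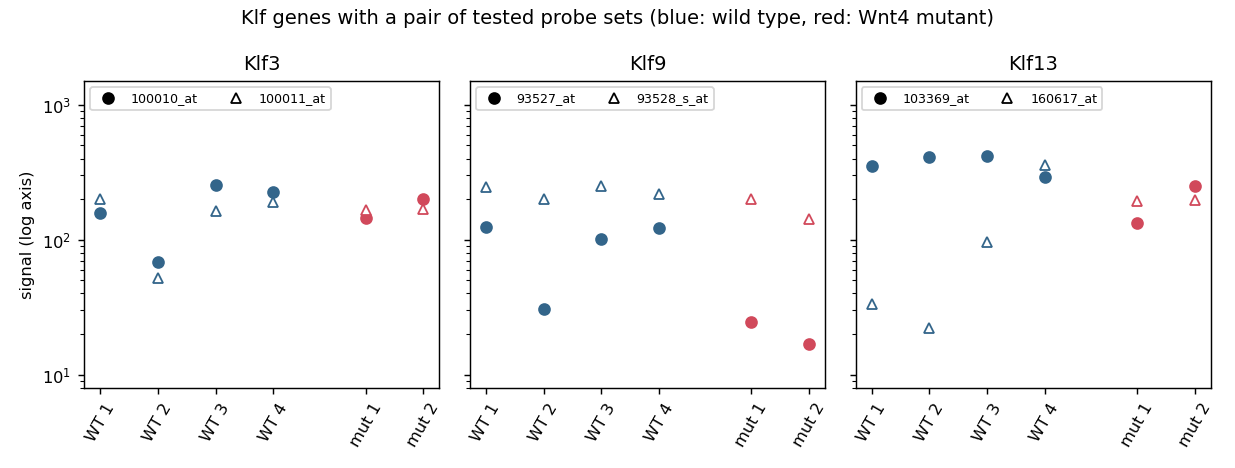
Signals (log axis) are shown by array for the 3 genes with a pair of tested probe sets, with wild type in blue, mutant in red, and circles and triangles for the probe sets; levels of different probe sets are not comparable. The Klf3 probe sets are both low on wild-type replicate 2, the Klf9 probe sets are both lower on the mutant arrays, and Klf13 is lower on both mutant arrays at 103369_at, while at 160617_at its groups overlap.

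Klf3, the CtBP-recruiting member, did not pass at either probe set. At 100010_at it read 159, 68.7, 255 and 227 in the wild type and 145 and 199 in the mutant, a log2 difference of 0.08 ± 0.44 (SE; adjusted p = 0.935). At 100011_at it read 200, 51.7, 163 and 192 in the wild type and 166 and 169 in the mutant, a difference of 0.26 ± 0.46 (SE; adjusted p = 0.764). Wild-type replicate 2 was the lowest array at both, and the mutant arrays lay within the wild-type range. Without it both differences turned negative (-0.28 and -0.13). The changes of the probe sets differed by -0.19 (exact two-sided permutation test, p = 0.60).

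Klf6 had narrow spread and a small difference. Its probe set 98083_at read 513, 476, 403 and 369 in the wild type and 385 and 435 in the mutant. The mutant arrays lay inside the wild-type range, and the log2 difference was -0.09 ± 0.16 (SE; 95% interval -0.46 to 0.28; limma, adjusted p = 0.777).

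Klf7, the close relative of Klf6, had low signals at 104645_at: 61.6, 18.5, 86.9 and 105 in the wild type and 111 and 56.8 in the mutant. It exceeded the 40th percentile on only 2 arrays, the groups overlap, and the difference was 0.34 ± 0.59 (SE; adjusted p = 0.766). Klf1, the red cell factor, read 87.5, 27.8, 177 and 142 in the wild type and 103 and 135 in the mutant at 100452_at. Again wild-type replicate 2 was the lowest array, and the difference was 0.31 ± 0.56 (SE; adjusted p = 0.779). Klf2, the endothelial factor, read 12.5 to 15.4 in the wild type and 17.8 and 14.9 in the mutant at 96109_at. These signals are far below the 40th percentile on every array, and Klf2 was not tested. Wild-type replicate 2 was the lowest of the 6 arrays for 5 of the 11 tested Klf probe sets (both of Klf3, Klf1, Klf7 and Klf13 at 160617_at), where it was so for 16.2% of all tested.

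The Klf genes lie on different chromosomes of the GRCm38.p6 assembly, apart from Klf1 and Klf2, which are both on chromosome 8. The RefSeq promoter table of that assembly held 9 of the 10 genes, and Klf5 was not among them. The 250 bases before the start of Klf4, which rose, and of Klf13, which gave opposite signs, are shown because the family binds CACCC elements and GC boxes. They are read 5′ to 3′ on the minus strand, with capitals marking CACCC or CCGCCC on either strand (GGGTG and GGGCGG on the other strand).
Klf4, chr4:55532476-55532725: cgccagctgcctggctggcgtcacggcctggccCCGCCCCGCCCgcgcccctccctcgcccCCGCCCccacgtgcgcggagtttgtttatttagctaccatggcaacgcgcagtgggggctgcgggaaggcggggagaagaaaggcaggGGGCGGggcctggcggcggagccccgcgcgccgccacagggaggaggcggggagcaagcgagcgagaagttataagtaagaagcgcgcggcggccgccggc
Klf13, chr7:63938916-63939165: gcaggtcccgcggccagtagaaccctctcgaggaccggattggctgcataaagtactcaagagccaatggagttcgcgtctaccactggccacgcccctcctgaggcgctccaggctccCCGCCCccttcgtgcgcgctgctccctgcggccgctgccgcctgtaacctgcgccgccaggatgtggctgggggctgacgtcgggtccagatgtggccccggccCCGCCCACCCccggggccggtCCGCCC

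The Klf4 window held 4 CCGCCC matches and 0 CACCC matches, and the Klf13 window held 3 and 1, with 1 base shared between a match of each kind. Over all 32851 windows of this length in the table, 32.7% held CCGCCC and 52.0% held CACCC. The latter was also found in the windows of Klf1, Klf2, Klf3 (5 matches), Klf7 (3 matches), Klf9 and Klf15, and was not in that of Klf6. The windows of Klf7 and Klf15 lie inside the annotated span of the gene rather than before it. CTTTGA, searched on both strands as a core of the sites bound by the TCF/LEF factors of Wnt signalling, was in 13.8% of all windows and in none of the 9 Klf windows. The GC share of the Klf windows ran from 49.2% for Klf1 to 78.4% for Klf3. A match or its absence in these windows is a description of the letters only.

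Genes with patterns closest to the Klf probe sets that passed were found by the Euclidean distance between log2(signal + 16) values, each centred on its mean over the 6 arrays. Likeness in this measure follows mostly from the difference between the groups. The genes nearest to Klf4 were Rbbp9 (distance 0.31), Foxd1, the transcription factor of the kidney's cortical stroma (0.34), and Ddit4, a stress-induced inhibitor of mTOR signalling (0.34). Foxd1 read 1456, 1528, 1405 and 1199 in the wild type and 4692 and 4749 in the mutant, and like Klf4 it was lowest on wild-type replicate 4. Nearest to Klf5 were St8sia2, a sialyltransferase that adds polysialic acid (0.13), the homeobox gene Six5 (0.24) and Tpd52l1 (0.27). Nearest to Klf13 at 103369_at were Gucy1b1, a subunit of soluble guanylate cyclase (0.31), Lancl2 (0.34) and Epop (0.38). Of these, Lancl2 was called lower (limma, adjusted p = 0.0170), while Gucy1b1 and Epop did not pass (adjusted p = 0.129 and 0.112).

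**Figure D4:**
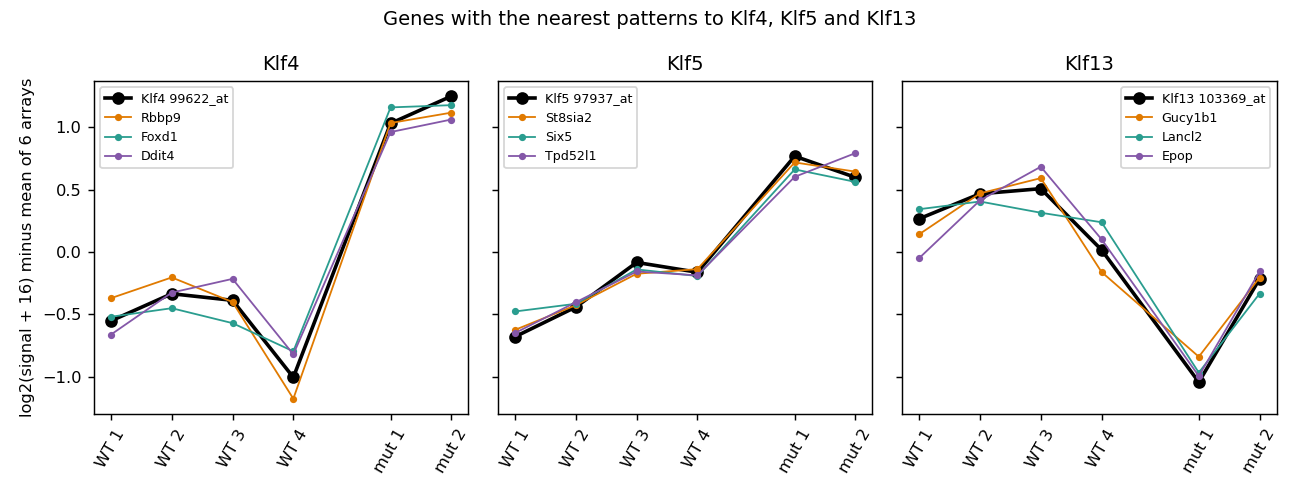
Log2(signal + 16) minus its mean over the 6 arrays is plotted by array for Klf4, Klf5 and Klf13 (black) and the 3 nearest genes of each (colours); lines only join the points of a gene. Klf4 and its nearest genes are lowest on wild-type replicate 4, and Klf13 at 103369_at and its nearest genes are lowest on mutant replicate 1.

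Other genes of the family and its pathway were counted at the brightest probe set of each gene, where 11.5% of 6082 genes passed (6.35% lower, 5.13% higher). Of the other KLF and Sp factors, 3 were tested and 1 rose. Sp3, a relative that binds GC boxes, read 1278, 1280, 1363 and 1107 in the wild type and 1600 and 1761 in the mutant (0.42 ± 0.11 SE; limma, adjusted p = 0.0434). This call held in 6 of 16 alternatives and was lost without wild-type replicate 1, 2 or 3 (adjusted p = 0.0837, 0.0670 and 0.0503) and without mutant replicate 1 or 2 (0.149 and 0.303). Klf10, a TGF-beta-induced member, was lower on both mutant arrays at its probe sets without passing (-0.30 and -0.47; adjusted p = 0.179 and 0.0542). Sp1 had 0.56 (adjusted p = 0.397). Klf12, Klf17 and Sp4 had probe sets too low to be tested.

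None of the 12 tested cofactors and ubiquitin ligases of the family passed, with a median difference of 0.07. They include the corepressors through which Klf3 and Klf9 or Klf13 act, and Ctbp1 had -0.04 (adjusted p = 0.816) and the deacetylase Hdac2 0.15 (adjusted p = 0.298). In the MEK5-ERK5-MEF2 and CCM pathway, which controls Klf2 and Klf4 in endothelium, 0 of 6 passed, with a median of 0.49. All 6 belong to the MEK5-ERK5-MEF2 arm. No listed CCM gene had a probe set used here, so the CCM arm was not measured. Mef2d had 0.47 (adjusted p = 0.128) and the kinase Map2k5 -0.06 (adjusted p = 0.848). In the glucocorticoid response, which induces Klf9, 0 of 9 passed, with a median of -0.57, and Mt2 and Fkbp5 had -0.57 and 0.14 (adjusted p = 0.150 and 0.499). Of the known KLF15 targets 0 of 4 passed, with a median of -0.25, and Bcat2 and Synpo had 0.35 and -0.72 (adjusted p = 0.184 and 0.103).

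Known targets moved in both directions. The lists do not separate targets that a factor activates from those it represses. Neither their directions nor their medians therefore measure the activity of a factor. Among 14 tested epithelial and cell cycle targets of KLF4, KLF5 and KLF6, the median was 0.16. Of these, 3 fell, 2 rose and 9 missed the threshold. The cell cycle gene Ccnd1 fell by 0.81, the growth factor gene Pdgfa by 0.54 and the smooth muscle gene Tagln by 1.32 (adjusted p = 4.85e-04, 0.0488 and 6.60e-04). Krt8 and Krt18, keratins of simple epithelia, were higher by 0.36 and 0.40 (adjusted p = 0.0277 and 0.0474). The calls of Ccnd1 and Tagln held in all 16 alternatives. Those of Pdgfa, Krt8 and Krt18 held in 5, 8 and 6, and were lost without mutant replicate 1 (adjusted p = 0.230, 0.179 and 0.180) and without mutant replicate 2 (0.236, 0.204 and 0.302). The claudins Cldn4 and Cldn7 had 0.00014 and -0.26 (adjusted p = 1.00 and 0.194). Among 5 tested endothelial targets of KLF2 and KLF4, the median was -0.58. Of these, 2 fell, 0 rose and 3 missed the threshold. The nitric oxide synthase Nos3, which KLF2 and KLF4 activate, read 152 to 217 in the wild type and 46.7 and 41.8 in the mutant (adjusted p = 0.00431). Both mutant arrays were below the 40th percentile, so Nos3 was tested only through the wild-type arrays, where it is high, and its fitted difference (-1.76) is set against signals that low. The adhesion gene Vcam1, which they repress, read 397 to 513 in the wild type and 293 and 276 in the mutant (-0.61, adjusted p = 0.0319), though its other probe set had -0.08 (adjusted p = 0.875). The call of Nos3 held in all 15 alternatives in which it was tested. That of Vcam1 held in 10 of 16 and was lost without wild-type replicate 1 or 3 (adjusted p = 0.0686 and 0.0699) and without mutant replicate 1 or 2 (0.143 and 0.202).

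Among 7 tested erythroid targets of KLF1, the median was 0.81. Of these, 3 rose, 0 fell and 4 missed the threshold. Those that rose were globins of the embryo. Hba-x rose by 1.78 and Hbb-y by 1.66 (adjusted p = 1.09e-04 and 9.57e-04). Hbb-bh1 read 35.4 to 58.8 in the wild type and 317 and 216 in the mutant (adjusted p = 0.00623). Its wild-type arrays were all below the 40th percentile, so it was tested only through the mutant arrays, where it is high, was not tested without either of them, and its fitted difference (2.18) is set against signals that low. The adult globins Hba-a1 and Hbb-b2 had -0.004 and 0.03 (adjusted p = 0.987 and 0.936), beside the 0.31 of Klf1 itself. The median of this list ran from 0.03 with the filter at the 60th percentile to 1.03 without wild-type replicate 2.

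**Figure D5:**
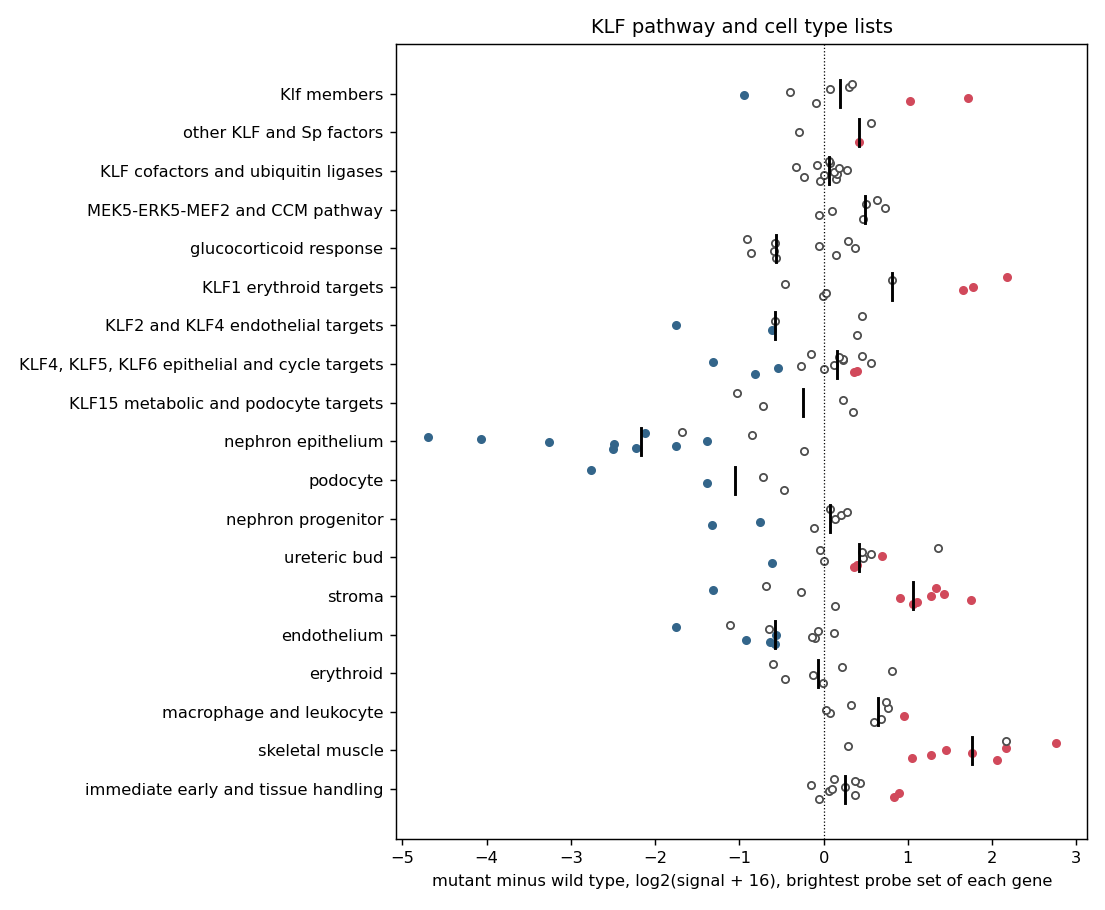
Points give the log2 difference (mutant minus wild type) at the brightest probe set of each tested gene, by list, filled red or blue where it rose or fell at an adjusted p under 0.05, and bars give list medians. The Klf members spread to both sides of 0, the stroma and skeletal muscle lists lie mostly to the right, and the nephron epithelium list lies to the left.

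Markers of several cell types moved with genotype beside these results. Over all 6082 genes at their brightest probe set, 6.35% were called lower and 5.13% higher. The summed signal of 11 stroma markers was 12346 to 13487 on wild-type and 24039 to 24347 on mutant arrays, with 7 higher and 1 lower. For 9 skeletal muscle markers it was 1627 to 2281 and 5944 to 6320 (7 higher). Of these 7, Tnnc1 was below the 40th percentile on every wild-type array and entered the test only through the mutant arrays. The calls of Myog and Myl1 held in 11 and 12 of 16 alternatives, and not with a single mutant array left. For 12 nephron epithelium markers the summed signal was 7550 to 9950 and 3268 to 3401 (9 lower). On both mutant arrays, 6 of the 12 were below the 40th percentile, so they entered the test only through the wild-type arrays. Those of the 6 that were called lower are Slc34a1, Slc12a1, Pdzk1 and Slc22a6. For 11 endothelium markers, the cell type in which Klf2 and Klf4 are best known, the summed signal was 8180 to 8705 and 5820 to 5991 (5 lower). The other 6 did not pass: Cdh5 (-0.10), Tie1 (-0.14), Tek (-0.07), Kdr (0.12), Flt1 (-0.65) and Pecam1 (-1.11). Emcn was called lower at its brightest probe set, while its others had -0.10 and -0.38 without passing. Nos3 and Pecam1 were tested only through the wild-type arrays. The 4 podocyte markers gave 2426 to 3268 and 1338 to 1504 (2 lower). Of these 2, Ptpro was below the 40th percentile on both mutant arrays and entered the test only through the wild-type arrays. The 10 ureteric bud markers, from the epithelium in which Klf5 is known, gave 7514 to 9168 and 9490 to 9743 (3 higher, 1 lower). The 3 were the keratins Krt8, Krt18 and Krt7, whose calls held in 8, 6 and 13 of 16 alternatives. None of the 3 held with a single mutant array left. Calb1 was lower (-0.61), a call that held in 15 of 16. The other 6 did not pass, and Ret and Aqp2 had probe sets too low to be tested. The 8 macrophage and leukocyte markers gave 1422 to 1669 and 2250 to 2446 (1 higher). The call was C1qb, which held in 10 of 16 alternatives, and another C1qb probe set did not pass (0.33; limma, adjusted p = 0.658). The 7 nephron progenitor markers gave 8606 to 9491 and 6709 to 6798. In that list Uncx and Cited1 were lower, the other 5 did not pass, and the median difference was 0.07. The summed signal of the 6 erythroid markers overlapped between the groups, with 18982 to 24756 and 21546 to 22080, and 0 passed. Most of this sum is Hba-a1, which alone read 17830 to 23586 in the wild type. Taken singly, Alas2 lay below and Slc4a1 above the wild-type range on both mutant arrays (-0.46 and 0.81; limma, adjusted p = 0.0644 and 0.366). Of 11 immediate early genes, which tissue handling can induce, 2 rose: Btg2 (0.84, adjusted p = 0.00197) and Jun (0.90, adjusted p = 0.0346; lost without mutant replicate 1 or 2, at 0.102 and 0.267, and without wild-type replicate 2 or 3, at 0.0601 and 0.0551). Their sum was 4331 to 4522 and 5577 to 5640. No marker was listed at 0 on any array. Some genes, such as Krt8, Krt18, Tagln, Nos3 and Synpo, are in both a target list and a marker list. The part of these cell types in the rise of Klf4 and Klf5 was not tested.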

How the data were processed

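The authors deposited 1 linear signal (intensity) per probe set and array. Per the submitters' processing notes it came from GCOS, Affymetrix software whose version and settings no label gives. Trimmed means of 500.3 on every array show that the arrays had been scaled to a common level. Gene names came from the platform annotation, updated by gene identifier to the RefSeq table of GRCm38.p6. Of 12422 probe sets, 10833 had 1 symbol, 396 had several and 1193 were unnamed here, and 66 control probe sets were set aside.

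Signals were taken as log2(signal + 16) without another normalization, which understates changes of low signals. Probe sets above the 40th percentile of their array on at least 2 arrays were tested with limma 3.58.1 (R 4.3.3; lmFit, eBayes with a variance trend, no covariate) over all 7981. The script was tested on simulated data. Gene lists used the brightest probe set of a gene (by mean log2 signal) and were described by counts and medians. Pairs of probe sets were compared with an exact permutation test. All members were named; from each list up to 4 genes past the threshold in each direction and up to 2 others with the highest signals; and the 3 genes nearest to each Klf probe set that passed. Cell type lists are given mainly by their sums. The members and lists were chosen with earlier results of these data known. Nothing says that samples came from separate litters, so p-values measure the spread between these pools, whose number limits the precision. Alternatives were other offsets, filters, normalizations, variance models, array weights, a replicate block and leaving out arrays.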

Additional observations from a re-analysis of the deposited data

Results flagged for a closer look

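Within the 4 wild-type arrays, replicate 2 stood apart at 2 of the 13 Klf probe sets. Klf3 at 100011_at read 51.69 there, and Klf9 at 93527_at read 30.88, each far below the other wild-type arrays relative to their range on the log2 scale (gap over range 0.839 and 0.843, beyond Dixon's 95% critical value for 4 samples). Chance marks about 1 in 20 groups in this way.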

How the results depend on the processing

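The rise of Klf4 kept its direction and its call in all 16 alternatives, and that of Klf5 in 14, the exceptions being the fits without either mutant array. The fall of Klf13 at 103369_at kept its direction in all 16 and its call in 9. The number of Klf probe sets called lower was 0 with no filter, with eBayes without a trend, and without wild-type replicates 2 and 4 (chosen after seeing the data). Leaving out 1 array at a time, it ran from 0 to 1 and the number called higher from 1 to 2. Over all probe sets, 488 were lower and 371 higher. These counts ran from 188 to 553 and from 114 to 448 when 1 array was left out, lowest without a mutant array, and were 738 and 613 with array weights. Without wild-type replicate 2, differences turned negative for Klf1 (-0.13), Klf3 (-0.28 and -0.13) and Klf7 (-0.042). Without replicates 2 and 4 they did so for Klf1 (-0.076) and Klf3 (-0.22 and -0.10), and without mutant replicate 2 for Klf3 at 100010_at (-0.13). Leaving out 1 array at a time, the differences reached at most 0.58 for Klf1, 0.28 and 0.43 for Klf3 at 100010_at and 100011_at and 0.74 for Klf7. The difference between the Klf3 probe sets ran from -0.38 to 0.011 in the same way. None of these passed in either form. Klf7 and Klf9 at 93527_at were not tested in 4 settings, because fewer than 2 arrays exceeded the filter. Over the 16 alternatives the list medians changed sign for KLF15 targets (-0.38 to 0.35) and cofactors (-0.014 to 0.13). Those of the nephron progenitor markers (-0.079 to 0.11) and the erythroid markers (-0.23 to 0.10) also changed sign. The sign held for the endothelial targets (-0.65 to -0.11) and the epithelial and cell cycle targets (0.035 to 0.26).

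The groups share replicate numbers 1 and 2. Deviations from the group means correlated at 0.024 and 0.013 between arrays of the same number. The deviations of the 2 mutant arrays are exact opposites, so this check cannot decide whether the numbers pair the samples. With the replicate number as a block, 362 probe sets were lower and 341 higher, and 3 Klf probe sets were higher and 1 lower. The added call was Klf13 at 160617_at (2.29, adjusted p = 0.0141), while 103369_at stayed lower. Wild-type replicates 3 and 4 share their number with no mutant array, so every difference in this fit compares only replicates 1 and 2. For Klf13 at 160617_at this leaves out wild-type replicate 4, which read 356, above both mutant arrays. The block also gave larger differences for Klf1 (0.99), Klf3 (0.62 and 0.60), Klf6 (-0.26) and Klf7 (0.89), none of which passed. With 1 residual degree of freedom this fit leans on the variance shared across probe sets.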
